A study of Mus musculus with 24 samples.

Results

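The genes described here are 10 genes of the circadian clock, taken by symbol from the 24015 rows of a liver count table: the activators Arntl, Npas2 and Clock, the repressors Cry1, Per1, Per2 and Per3, the nuclear receptors Nr1d1 and Nr1d2, and the output factor Dbp. All 10 had a row, and all 10 passed the filter on low counts in every comparison. They were followed in 24 libraries, 3 from each of 8 mouse livers.

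The circadian clock is a feedback loop of transcription that runs in most cells, including hepatocytes. ARNTL, also called BMAL1, pairs with CLOCK or its relative NPAS2 and binds E-box sequences, which turns on the Per and Cry genes, Nr1d1, Nr1d2 and Dbp. The PER and CRY proteins then block that pair, the NR1D receptors (REV-ERB) repress Arntl in competition with the activating ROR receptors, and DBP drives its own targets through D-box sequences. In liver the transcripts of Arntl, Npas2 and Clock are known to peak at another time of day than those of Dbp and the Per genes, and much of liver metabolism follows this rhythm.

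Liver came from female mice of B6C3F1, a hybrid strain common in toxicology, bought at 5 to 6 weeks of age. For 21 days 4 mice were gavaged with furan, a liver toxicant formed in heated food, at 8 mg per kg per day in corn oil, and 4 controls with corn oil alone; every mouse was killed 4 hours after its last dose. The time of day of collection is not given in the sources used here. Each liver was cut into 3 pieces that were frozen, held in formalin for 18 h before paraffin embedding (FFPE 18 h) or held in formalin for 3 weeks (FFPE 3 weeks), which makes 6 groups of 4 libraries. The same animals are therefore in all 3 preservations (controls 2, 3, 4 and 6, furan animals 41, 42, 43 and 44), and agreement between preservations is agreement between pieces of 1 liver, not between new animals. Preservation, extraction kit, amount of tissue and piece of liver cannot be told apart.

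Promoter sequences of the genes bear on this loop, since the proteins named above act through short motifs. RefSeq windows of 300 bases, 250 before and 50 after a transcript start (assembly GRCm38.p6), matched 9 of the 10 genes with 13 windows. Per2 had no entry. The 4 windows below are examples. Each holds a motif known for the proteins named above, in a gene that differed between the groups or the animals. Windows of Clock, Nr1d1 and Nr1d2 also held a motif and are not shown. Capitals mark the motifs, searched on both strands: the E-box CACGTG, its variant CACGTT, the ROR half-site AGGTCA, to which both ROR and NR1D receptors bind, and the D-box TTATGTAA. A motif on the other strand appears as its reverse complement. The letters are given 5′ to 3′ along the transcribed strand.
Arntl, chr7:113207261-113207560, plus strand: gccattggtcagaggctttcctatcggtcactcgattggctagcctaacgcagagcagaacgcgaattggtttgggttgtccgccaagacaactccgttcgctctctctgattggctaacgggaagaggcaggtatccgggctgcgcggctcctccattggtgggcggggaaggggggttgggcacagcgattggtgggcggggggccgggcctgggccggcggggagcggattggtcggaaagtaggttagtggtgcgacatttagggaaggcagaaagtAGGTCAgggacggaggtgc
Cry1, chr10:85185005-85185304, minus strand: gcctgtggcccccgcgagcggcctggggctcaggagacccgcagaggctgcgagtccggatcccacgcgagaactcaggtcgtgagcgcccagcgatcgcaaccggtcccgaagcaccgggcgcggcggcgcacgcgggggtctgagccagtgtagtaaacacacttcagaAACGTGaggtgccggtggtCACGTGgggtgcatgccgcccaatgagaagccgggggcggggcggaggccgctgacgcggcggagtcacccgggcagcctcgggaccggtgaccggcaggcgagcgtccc
Per1, chr11:69098699-69098998, plus strand: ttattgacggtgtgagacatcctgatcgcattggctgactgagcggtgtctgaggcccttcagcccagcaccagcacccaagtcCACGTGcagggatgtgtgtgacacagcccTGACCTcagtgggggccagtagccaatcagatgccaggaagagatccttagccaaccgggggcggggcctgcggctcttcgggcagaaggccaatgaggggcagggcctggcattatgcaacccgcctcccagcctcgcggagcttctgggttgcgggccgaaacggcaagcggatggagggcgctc
Per3, chr4:151044616-151044915, minus strand: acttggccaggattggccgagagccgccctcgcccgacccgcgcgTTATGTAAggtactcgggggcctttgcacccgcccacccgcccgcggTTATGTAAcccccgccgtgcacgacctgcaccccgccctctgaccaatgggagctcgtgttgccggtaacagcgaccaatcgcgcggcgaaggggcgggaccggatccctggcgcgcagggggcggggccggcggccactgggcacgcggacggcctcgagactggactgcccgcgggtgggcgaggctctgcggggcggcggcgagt

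The Cry1 window held an E-box and the E-box variant, the Per1 window an E-box and a ROR half-site, and the Per3 window 2 D-boxes. The second Arntl window held a ROR half-site just after the start, with none of the 4 motifs in its first window. Across 32851 RefSeq promoter windows of the same length, 7.15% held the E-box, 4.68% the variant, 16.3% the ROR half-site and 0.938% the D-box. Among the 9 genes with a window, the E-box occurred in 2 (Cry1 and Per1), the variant in 2 (Cry1 and Nr1d1), the ROR half-site in 4 (Arntl, Clock, Nr1d2 and Per1) and the D-box in 1 (Per3). A gene was counted if any of its windows held the motif. The shares over all promoters are per window, so the 2 are not like measures. The Npas2 and Dbp windows held none of these letters, which says nothing of sites elsewhere in or around those genes. A match is a description of the letters only.

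Libraries held 37978435 to 49326373 counts in frozen tissue, 22889146 to 28054631 in FFPE 18 h and 5560002 to 11019297 in FFPE 3 weeks. RNA integrity numbers were above 8.9 in frozen and 1.3 to 2.4 in fixed tissue. Hepatocyte markers (Alb, Ttr, Apoa1, Serpina1c, Tat and Cyp2e1) summed to 150590 to 175949 counts-per-million (CPM, scaled by TMM over all 24 libraries) in frozen libraries, so the tissue carried the RNA of its main cell type, and lymphocyte markers summed to at most 9.93 CPM in any library. With furan, the 4 markers of sinusoidal endothelium summed to less in each preservation without overlap, at 294 to 311 against 383 to 406 CPM in frozen tissue. Most of that sum was Stab2, and the 4 markers did not all move together: Lyve1 was at 0.11 ± 0.14 in FFPE 18 h and 0.65 ± 0.34 in FFPE 3 weeks on the log2 scale, and Clec4g at -0.06 ± 0.18 in FFPE 3 weeks, with overlapping groups and none of the 3 called. Most of the hepatocyte sum was Alb, and Cyp2e1, an enzyme that oxidises furan, fell with furan by 0.71 ± 0.12, 0.63 ± 0.07 and 0.77 ± 0.08 in frozen, FFPE 18 h and FFPE 3 weeks tissue (adjusted p = 0.0108, 2.01e-05 and 1.34e-06, edgeR). Serpina1c was also called lower in both fixed tissues and Apoa1 in FFPE 18 h. The part of these markers in the results below was not tested. In bulk tissue, fewer cells of a type and less RNA per cell cannot be told apart.

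Per length of exon, Nr1d2 had the highest level of the 10 genes in frozen control liver, 36.8 ± 7.29 CPM per kb (SD, n = 4), followed by Dbp at 28.5 ± 10.7 and Nr1d1 at 24.3 ± 6.91. Per3 stood at 14.5 ± 5.10, Clock at 10.3 ± 3.37, Per2 at 5.35 ± 1.802, Per1 at 3.45 ± 2.00 and Cry1 at 2.23 ± 0.561. Arntl, at 1.21 ± 0.773, and Npas2, at 0.103 ± 0.0426, were the lowest. The library ranges of each gene and the next in that order overlapped except between Arntl and Npas2, so the exact order is not fixed by 4 animals. In furan-treated frozen liver Arntl stood at 5.03 ± 0.778 CPM per kb, beside Per2 at 5.27 ± 1.01.

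Arntl, the activator without which the loop does not run, was the clock gene that differed most between furan and control in frozen liver. Its level was 6.26, 2.53, 4.22 and 1.03 CPM in controls 2, 3, 4 and 6 and 13.4, 17.6, 12.5 and 15.02 CPM in furan animals 41, 42, 43 and 44. Every furan liver lay above every control, and the controls spread over a wider range of ratios than the furan animals. Arntl rose by 2.06 ± 0.40 on the log2 scale (estimate ± SE, 4.16-fold, edgeR quasi-likelihood test with Benjamini-Hochberg adjustment, adjusted p = 0.0236). It was 1 of 10 clock genes called, beside 2.78% of the 14122 genes tested (1.57% higher and 1.2% lower), and the median log2 fold change was 0.08 over the 10 genes and -0.01 over all. The call depended on single libraries: the adjusted p rose above 0.05 without control 3 (0.108), control 4 (0.0654), furan 41 (0.0637), furan 42 (0.0767), furan 43 (0.0698) or furan 44 (0.0773), and stayed below it in 2 of 8 fits with a library left out, while the log2 fold change stayed between 1.75 and 2.48.

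**Figure D1:**
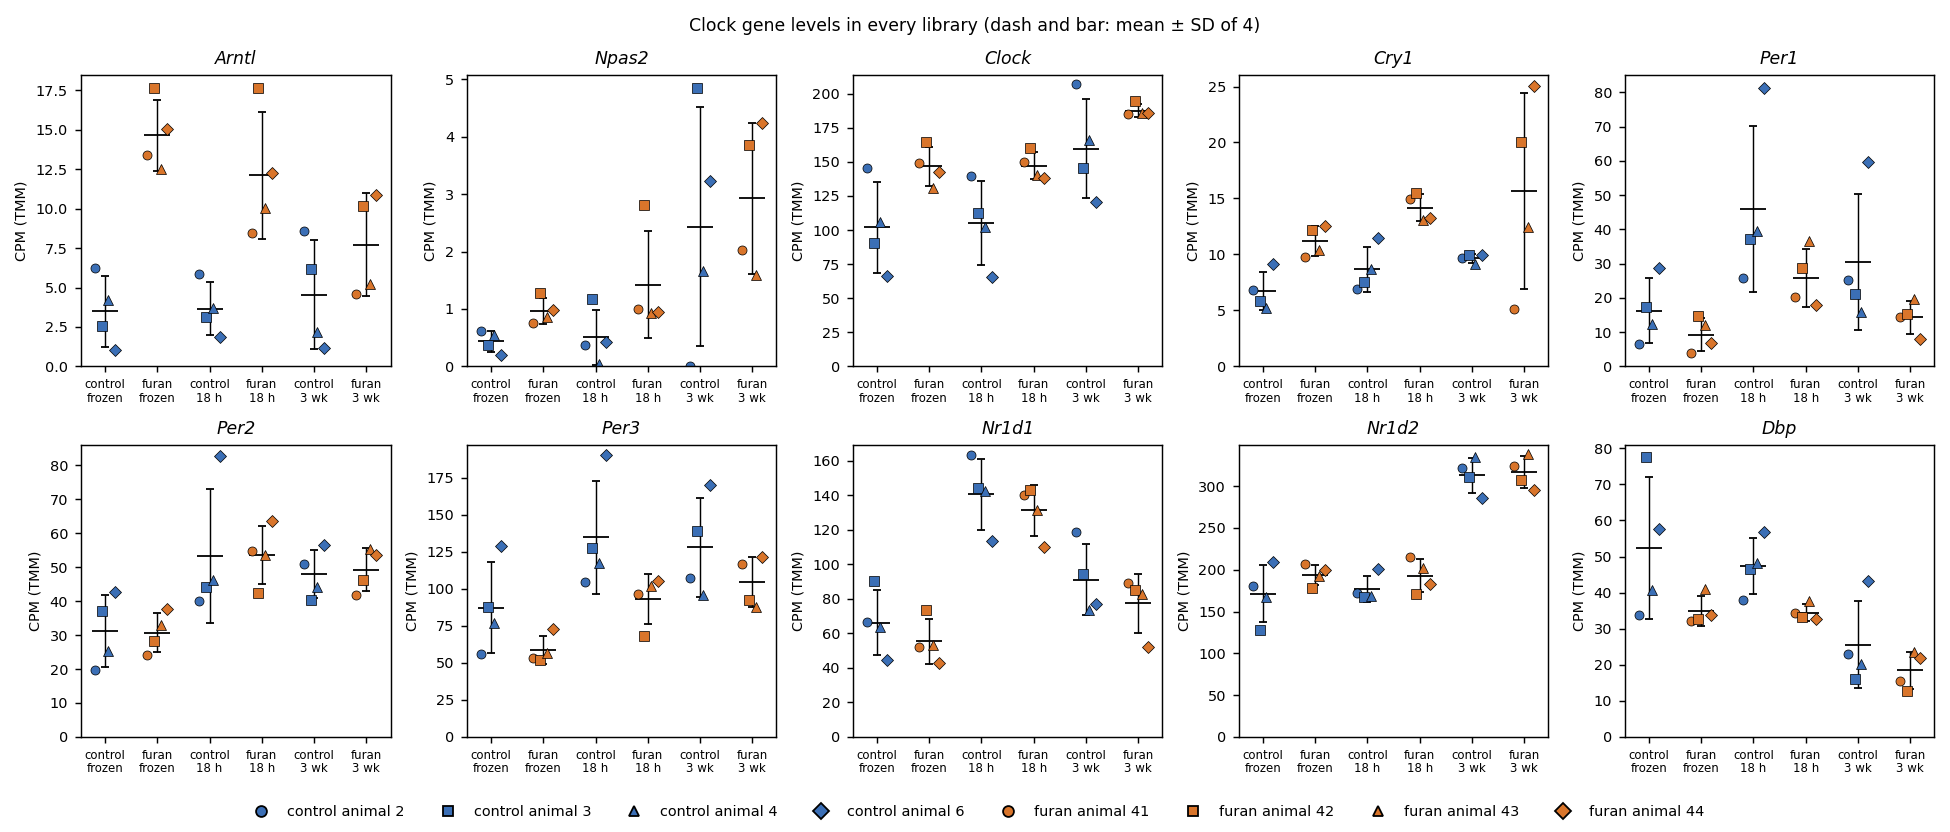
Level of each clock gene in counts-per-million (CPM, TMM-scaled) in every library, with control animals in blue and furan animals in orange, 1 symbol per animal, and mean ± SD of 4 as dash and bar. In frozen liver the furan animals lie between 12.5 and 17.6 CPM for Arntl and the controls between 1.03 and 6.26.

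In the FFPE 18 h pieces of the same livers Arntl was at 5.88, 3.16, 3.71 and 1.85 CPM in controls and at 8.45, 17.7, 10.1 and 12.2 CPM in furan animals, in the same order of animals. The groups again did not overlap, and control 6 was again the lowest and furan 42 the highest. Arntl rose by 1.74 ± 0.35 (adjusted p = 0.0109, edgeR), and the call held in 8 of 8 fits with a library left out but not in 1 fit of all 24 libraries (adjusted p = 0.0514). After 3 weeks in formalin the controls were at 8.58, 6.17, 2.18 and 1.18 CPM, from 102, 74, 17 and 11 counts, and the furan animals at 4.59, 10.2, 5.24 and 10.9 CPM, from 52, 66, 56 and 144 counts. Here the groups overlapped, since controls 2 and 3 lay above furan 41 and 43, and the log2 fold change of 0.78 ± 0.59 was not called (adjusted p = 0.698, edgeR).

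Npas2, which can take the place of CLOCK in the activator pair, was at 0.609, 0.380, 0.546 and 0.206 CPM in frozen controls and at 0.751, 1.28, 0.867 and 0.979 CPM in furan animals. All furan livers lay above all controls, at a level of 7 to 55 counts per library, and the log2 fold change of 1.15 ± 0.40 was not called (adjusted p = 0.161, edgeR). In FFPE 18 h the value was 1.48 ± 0.64 (adjusted p = 0.142), and without control 3, the highest control there at 1.18 CPM, it was called at 2.33 (adjusted p = 0.0342). In FFPE 3 weeks control 2 had 0 counts, which allows up to 0.274 CPM on a floor of 3 counts, while control 3 had 58 counts, and the log2 fold change was 0.28 ± 1.12.

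Clock, the partner of ARNTL, was at 146, 90.2, 106 and 66.3 CPM in frozen controls and at 149, 165, 131 and 142 CPM in furan animals. Only control 2 reached the furan range, and the log2 fold change of 0.52 ± 0.20 was not called (adjusted p = 0.194, edgeR). Without control 2 it was 0.74 and called (adjusted p = 0.0463). The FFPE 18 h value was 0.50 ± 0.22 (adjusted p = 0.194), called at 0.32 without control 6 (adjusted p = 0.0369), and the FFPE 3 weeks value 0.25 ± 0.13 (adjusted p = 0.455). Furan livers were close to each other for this gene, at 185 to 194 CPM after 3 weeks in formalin, against 121 to 207 CPM in controls.

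Cry1, a repressor of the activator pair, had a similar log2 difference between furan and control in each preservation and was called higher in FFPE 18 h. In frozen tissue controls were at 6.84, 5.86, 5.23 and 9.11 CPM and furan animals at 9.74, 12.2, 10.4 and 12.5 CPM, without overlap. The difference of 0.73 ± 0.19 was not called in frozen tissue (adjusted p = 0.0695, edgeR), but was called without control 3 (adjusted p = 0.0258) and without control 6 (adjusted p = 0.0395). In FFPE 18 h Cry1 rose by 0.72 ± 0.15 (adjusted p = 0.00303), from 6.88, 7.54, 8.73 and 11.5 CPM in controls to 14.95, 15.5, 13.1 and 13.3 CPM in furan animals. In FFPE 3 weeks controls lay within 9.11 to 9.99 CPM and furan animals spread from 5.12 to 25.1 CPM, and the estimate of 0.71 ± 0.39 was not called (adjusted p = 0.485).

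The Per genes, which encode the partners of CRY in repression, had no call between furan and control in any preservation. Per1 was at 6.52, 17.2, 12.4 and 28.8 CPM in frozen controls and at 3.84, 14.6, 12.01 and 6.83 CPM in furan animals, so that the groups overlapped widely. Its log2 fold changes were -0.79 ± 0.45 in frozen tissue, -0.82 ± 0.43 in FFPE 18 h and -1.07 ± 0.36 in FFPE 3 weeks (adjusted p = 0.380, 0.272 and 0.144, edgeR). With a library left out these ran from -1.10 to -0.37, -1.05 to -0.405 and -1.28 to -0.52. Control 6 was the highest control for Per1 in each preservation. After 3 weeks in formalin its controls were at 25.2, 21.1, 15.9 and 59.6 CPM and its furan animals at 14.5, 15.3, 19.7 and 7.93 CPM, so that only furan 43 lay above the lowest control, and without the low-count filter the gene was called there (adjusted p = 0.0114). After 18 h the controls were at 25.8, 37.2, 39.6 and 81.3 CPM and the furan animals at 20.2, 28.7, 36.6 and 17.9 CPM. Per3 was at 55.8, 87.4, 76.9 and 129 CPM in frozen controls and at 53.5, 52.0, 56.3 and 72.9 CPM in furan animals. Its estimates were -0.57 ± 0.22, -0.52 ± 0.23 and -0.27 ± 0.16, below 0 in each preservation with control 2 inside the furan range in frozen tissue. With a library left out they ran from -0.73 to -0.32, -0.64 to -0.32 and -0.39 to -0.11. Control 6 was the highest control for Per3 too in each preservation, and its part in these estimates was not tested. Per2 had estimates near 0, with 19.8 to 42.7 CPM in frozen controls, 24.2 to 37.7 CPM in furan animals and values of -0.02 ± 0.23, 0.02 ± 0.27 and 0.05 ± 0.18.

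Nr1d1 and Nr1d2, the receptors that repress Arntl, overlapped between furan and control in every preservation. Nr1d1 was at 66.4, 90.1, 63.6 and 44.3 CPM in frozen controls and at 52.0, 73.5, 53.4 and 42.7 CPM in furan animals. Its log2 fold changes were -0.25 ± 0.21, -0.09 ± 0.11 and -0.22 ± 0.17 in frozen, FFPE 18 h and FFPE 3 weeks tissue, none called by edgeR. Nr1d2 was at 181, 128, 168 and 210 CPM in frozen controls and at 207, 178, 193 and 199 CPM in furan animals, with estimates of 0.18 ± 0.14, 0.13 ± 0.08 and 0.03 ± 0.10, also not called.

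Dbp, an output factor that binds D-boxes, was lower in FFPE 18 h furan liver. Controls were at 37.8, 46.6, 48.2 and 56.7 CPM there and furan animals at 34.4, 33.1, 37.7 and 32.7 CPM, with no overlap but with control 2 and furan 43 nearly touching. Its log2 fold change was -0.45 ± 0.10, a fall (edgeR, adjusted p = 0.00644). In frozen tissue controls were at 33.8, 77.7, 40.6 and 57.5 CPM and furan animals at 32.2, 32.6, 40.97 and 33.8 CPM, overlapping, with -0.58 ± 0.22 (adjusted p = 0.197). In FFPE 3 weeks the value was -0.45 ± 0.30 (adjusted p = 0.628). With a library left out the Dbp estimates ran from -0.75 to -0.33 in frozen tissue, -0.55 to -0.36 in FFPE 18 h and -0.62 to -0.07 in FFPE 3 weeks.

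Some of these Dbp counts may belong to another gene, because 29.3% of the exon bases of Dbp are shared with Sphk2 on the opposite strand in the GENCODE M21 annotation and no strand setting for the counting is given. Sphk2, a sphingosine kinase, had a furan log2 fold change of -0.40 ± 0.27 in frozen tissue and -0.23 ± 0.08 in FFPE 18 h (adjusted p = 0.456 and 0.0728, edgeR). Its highest frozen library was control 3 at 58.2 CPM, which was also the highest for Dbp. Control 6 went the other way. It had the lowest Sphk2 of the controls in frozen, FFPE 18 h and FFPE 3 weeks tissue (20.7, 35.2 and 30.6 CPM). Its Dbp was at 57.5, 56.7 and 43.3 CPM, the highest of the controls in both fixed tissues. Likewise 9.67% of the exon bases of Nr1d1 are shared with Thra, whose furan values were -0.34 ± 0.16 and -0.29 ± 0.13 (adjusted p = 0.279 and 0.153). Reads of these overlapping genes cannot be told apart without strand.

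In FFPE 18 h, then, 3 of 10 clock genes were called, Arntl and Cry1 higher and Dbp lower, beside 15.5% of the 14204 genes tested (7.82% higher and 7.72% lower). In 1 fit of all 24 libraries 0 of these 3 calls stood, with Cry1 at an adjusted p of 0.303 and Dbp at 0.568 in edgeR. In FFPE 3 weeks 0 of 10 were called, beside 2.58% of 12983 genes (1.07% higher and 1.51% lower), with 1 clock gene, Per1, at an unadjusted p under 0.05 in edgeR and 0 called by DESeq2. At least 646 and fewer than 1835 of the 12983 genes had such an unadjusted p. By plain separation of the libraries, furan lay wholly above control for 3 genes in frozen tissue (Arntl, Npas2 and Cry1) and wholly below for 0, while 14.6% of genes with a mean of at least 1 CPM did not overlap (7.68% above and 6.96% below). Npas2 itself was under that mean in frozen tissue. In FFPE 18 h the furan libraries were wholly above for 2 genes and wholly below for 1, beside 21.4% of genes (10.3% above and 11.2% below), and in FFPE 3 weeks for 0, beside 8.67% (3.89% above and 4.78% below).

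**Figure D2:**
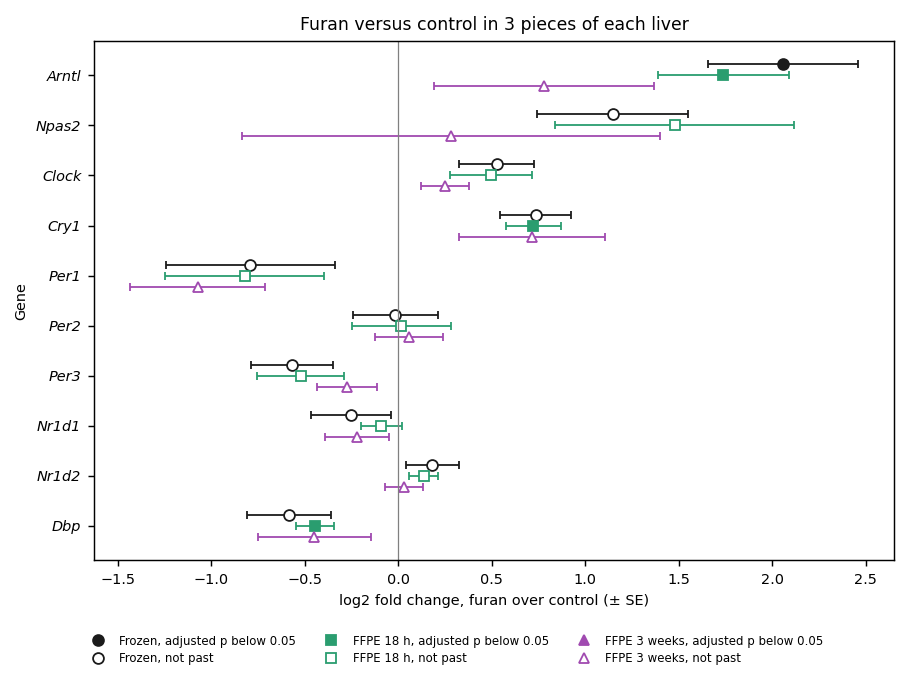
Furan over control as log2 fold change ± SE from edgeR for each clock gene in frozen, FFPE 18 h and FFPE 3 weeks pieces of the same 8 livers, with filled symbols where the adjusted p is below 0.05. Arntl has estimates of 2.06, 1.74 and 0.78, and the filled symbols are Arntl in frozen and Arntl, Cry1 and Dbp in FFPE 18 h tissue.

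Whether furan acted on a gene differently in 2 preservations was asked with an interaction term. For FFPE 18 h against frozen tissue 0 of 10 clock genes and 0 of 14843 genes were called by edgeR (0%), and the estimates of the clock genes ran from -0.30 ± 0.56 for Arntl to 0.35 ± 0.83 for Npas2. For FFPE 3 weeks against frozen tissue 0 of 10 and 0 of 14253 were called (0%), and Arntl had the largest difference, -1.30 ± 0.71 (unadjusted p = 0.0792). Over all genes DESeq2 called 0 for FFPE 18 h and 13 for FFPE 3 weeks. These fits did not pair the pieces of 1 animal. With the animal as replicate block edgeR also called 0 of all genes in either interaction. No clock gene had an unadjusted p under 0.05 in either unpaired interaction, which does not show that the furan effects were alike.

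Arntl and Dbp stand at opposite ends of the loop, and their ratio within a library does not depend on how libraries are scaled. In frozen tissue the ratio of Arntl to Dbp counts was 0.185, 0.0326, 0.104 and 0.0179 in controls 2, 3, 4 and 6 and 0.417, 0.541, 0.305 and 0.444 in furan animals 41, 42, 43 and 44. In FFPE 18 h it was 0.155, 0.0678, 0.0769 and 0.0325 in controls and 0.245, 0.533, 0.267 and 0.375 in furan animals, separate in both preservations. In FFPE 18 h furan lay wholly above control for Arntl and wholly below for Dbp, so separate ratios follow from those values and are no further result. No share over other pairs of genes was computed. In FFPE 3 weeks the controls were at 0.374, 0.385, 0.108 and 0.0273 and the furan animals at 0.295, 0.805, 0.221 and 0.495, where controls 2 and 3 lay inside the furan range. Furan 42 had the highest and control 6 the lowest ratio in all 3 pieces of its liver.

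**Figure D3:**
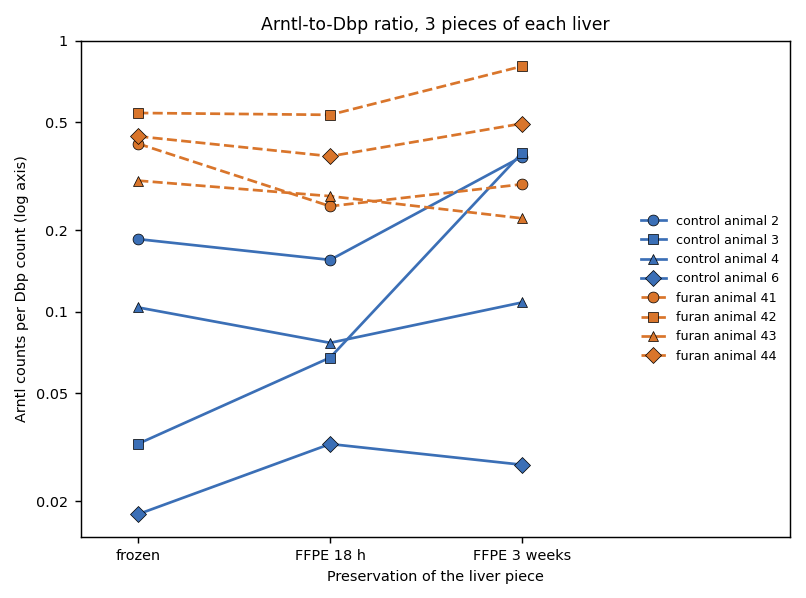
Arntl counts per Dbp count on a log axis in the 3 pieces of each liver, with lines joining pieces of 1 animal (controls blue and solid, furan orange and dashed). The groups are separate in frozen and FFPE 18 h tissue, and controls 2 and 3, at 0.374 and 0.385, enter the furan range after 3 weeks in formalin.

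Between preservations the clock genes differed, and not all in the same direction. The main fits here did not pair the pieces of 1 animal, and fits with the animal as replicate block are given where they changed a call. Compared with frozen pieces, 5 of 10 clock genes were higher and 0 lower after 18 h in formalin, beside 53.9% of all genes called (26.6% higher and 27.3% lower), so the total is near the background. Per1 rose by 1.48 ± 0.36 (adjusted p = 0.00325, edgeR), from 3.84 to 28.8 CPM in frozen libraries to 17.9 to 81.3 CPM. Nr1d1 rose by 1.16 ± 0.13 (adjusted p = 4.8e-07), from 42.7 to 90.1 CPM in frozen libraries to 110.0 to 163 CPM, without overlap. Both were higher in the fixed piece in 8 of 8 animals. Per2 rose by 0.78 ± 0.17, Per3 by 0.64 ± 0.16 and Cry1 by 0.35 ± 0.13 (adjusted p = 0.000916, 0.0023 and 0.0258), also in 8 of 8 animals. The Cry1 call was lost without animal 4 (adjusted p = 0.082), animal 41 (0.0904) or animal 43 (0.0552). It was also lost after thinning each library to 5560002 counts (0.0954) and in 1 fit of all 24 libraries (0.196). Arntl, Clock, Nr1d2, Dbp and Npas2 were not called, at -0.12 ± 0.28, 0.02 ± 0.15, 0.01 ± 0.09, -0.08 ± 0.13 and 0.38 ± 0.41.

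After 3 weeks in formalin 6 clock genes were higher than in frozen tissue and 1 was lower, beside 48.8% of all genes called (23% higher and 25.8% lower). Nr1d2, at 128 to 210 CPM in frozen libraries, was at 286 to 339 CPM and rose by 0.80 ± 0.09 (adjusted p = 2.28e-08, edgeR). Dbp, at 32.2 to 77.7 CPM in frozen libraries, was at 12.7 to 43.3 CPM and fell by 0.96 ± 0.20 (adjusted p = 0.000249), in 8 of 8 animals. Clock rose by 0.52 ± 0.12, Per2 by 0.67 ± 0.15, Per3 by 0.71 ± 0.15 and Nr1d1 by 0.49 ± 0.15 (adjusted p = 0.00111, 0.00046, 0.000284 and 0.00822), although the call for Nr1d1 was lost without animal 2 (adjusted p = 0.0533). Npas2 rose by 2.05 ± 0.66 (adjusted p = 0.0118), a call lost without animal 3 (0.0568) and with the animal as replicate block (log2 fold change 1.77, adjusted p = 0.121). Per1, at 0.78 ± 0.33, was not called (adjusted p = 0.0601) but was with the replicate block (0.83, adjusted p = 0.00248) and without animal 6 (0.0454) or animal 42 (0.0429). It was also called with DESeq2 size factors (0.0448) and in the DESeq2 test (0.0201). Cry1, at 0.52 ± 0.24, was not called (adjusted p = 0.0756) but was without animal 41 (0.0166). Cry1 was also called with DESeq2 size factors (0.0482), in the DESeq2 test (0.0412) and in 1 fit of all 24 libraries (0.0408). Arntl was at -0.25 ± 0.35.

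Between the 2 fixations 4 of 10 clock genes were called, 2 higher and 2 lower, beside 32.4% of all genes (14.9% higher and 17.5% lower). From 18 h to 3 weeks, Nr1d2 rose by 0.78 ± 0.06 and Clock by 0.49 ± 0.12 (adjusted p = 2.2e-10 and 0.00453, edgeR). Over the same step Nr1d1 fell by 0.68 ± 0.11 and Dbp by 0.88 ± 0.16 (adjusted p = 5.87e-05 and 0.000162), each in 8 of 8 animals. The 2 NR1D receptors thus moved in opposite directions with longer fixation. Per1 was lower in 8 of 8 animals, with -0.72 ± 0.32 not called (adjusted p = 0.102) but called with the replicate block (-0.74, adjusted p = 4.65e-06) and without animal 6 (adjusted p = 0.00419). Npas2, at 1.65 ± 0.71, was not called (adjusted p = 0.0787) but was without animal 2 (0.0344). It was also called in the DESeq2 test (0.0226) and in 1 fit of all 24 libraries (0.0330).

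Several measures moved with preservation beside these genes, and their part was not tested. All 6 hepatocyte markers were lower in FFPE 18 h and in FFPE 3 weeks than in frozen tissue, with summed levels of 93205 to 108538 and 50621 to 68002 CPM. The Pearson correlation of the log2 fold change with transcript GC across the 10 genes differed in sign between comparisons. It was 0.54 for 18 h against frozen tissue, -0.24 for 3 weeks against frozen and -0.63 for 3 weeks against 18 h, where all genes with a known sequence had 0.09, -0.13 and -0.25. The genes share these libraries, so the correlations are descriptions. For the genes whose exons overlap others, Sphk2 differed between 3 weeks and frozen by 0.11 ± 0.17 while Dbp fell, and Thra rose from frozen to 18 h by 0.31 ± 0.10 (adjusted p = 0.0112) beside Nr1d1.

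**Figure D4:**
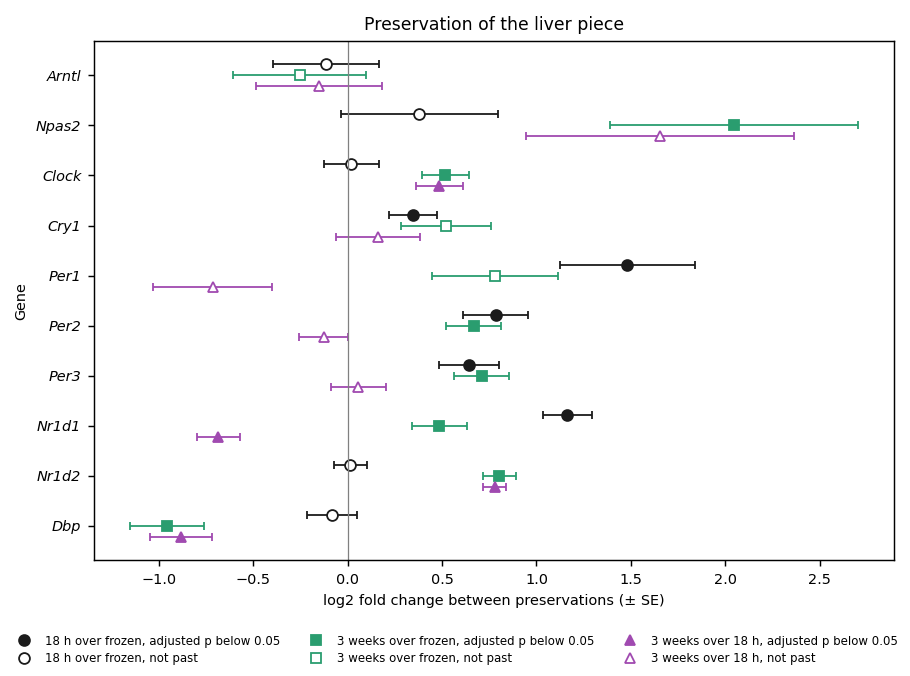
Log2 fold change ± SE from edgeR between preservations, 8 against 8 libraries, for each clock gene, with filled symbols where the adjusted p is below 0.05. Nr1d1 lies at 1.16 for 18 h over frozen and at -0.68 for 3 weeks over 18 h, while Nr1d2 lies at 0.01 and 0.78.

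Animals of the same group differed in clock gene level, and for some clock genes 1 control was the highest or the lowest in every piece. Among controls, animal 6 had the lowest Arntl and Clock and the highest Cry1, Per1, Per2 and Per3 in all 3 pieces. Animal 2 had the highest Arntl and Clock in all 3. For Cry1 the lead of animal 6 after 3 weeks in formalin was nearly a tie, at 9.99 CPM against 9.93 CPM in animal 3. Other genes were not ordered alike: animal 2 had the highest Npas2 of the controls in frozen tissue and the lowest after 3 weeks in formalin, and animal 6 had the highest Nr1d2 in frozen and FFPE 18 h tissue and the lowest after 3 weeks. Animal 6 was thus the highest control in all pieces for 4 of 10 clock genes and the lowest for 2, beside 4.46% and 3.57% of 12024 genes with a mean of at least 1 CPM in every preservation. This was noticed after the values were seen and is a description of 1 animal. Against the median of the other 3 controls, Per1 in animal 6 was 2.32, 2.19 and 2.82 times as high in frozen, FFPE 18 h and FFPE 3 weeks tissue, and Arntl was 0.245, 0.498 and 0.191 times as high.

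The same animal stood apart in genes driven by the clock. Of 12 clock output genes of liver, animal 6 was the highest control in all 3 pieces for 9 (Wee1, Usp2, Ccrn4l, Nampt, Por, Alas1, Cyp7a1, Gys2 and Lpin1). Usp2, a ubiquitin protease, was 3.18, 3.69 and 3.45 times the median of the other controls, and Lpin1, a phosphatidate phosphatase, 2.78, 3.22 and 3.18 times. Animal 2, with the highest Arntl, was the lowest control in all 3 pieces for 6 of the 12 (Usp2, Ccrn4l, Por, Alas1, Cyp7a1 and Lpin1), beside 3.65% of the 12024 genes. Elovl3 went the other way. It was highest in animal 2 in all 3 pieces, and in animal 6 it was 0.338, 0.289 and 0.497 times the median of the other controls. For Tfrc and Cys1 neither animal was the highest or the lowest control in all 3 pieces. The pattern was weaker in the 17 other genes of the clock described below. There animal 6 was the highest control in all 3 pieces for 3 and animal 2 the lowest for 1. The hepatocyte marker sum of animal 6, 157600 CPM in frozen tissue, lay within the 150590 to 173021 CPM of the other controls. It was the lowest of the 4 in FFPE 18 h at 93278 CPM.

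**Figure D5:**
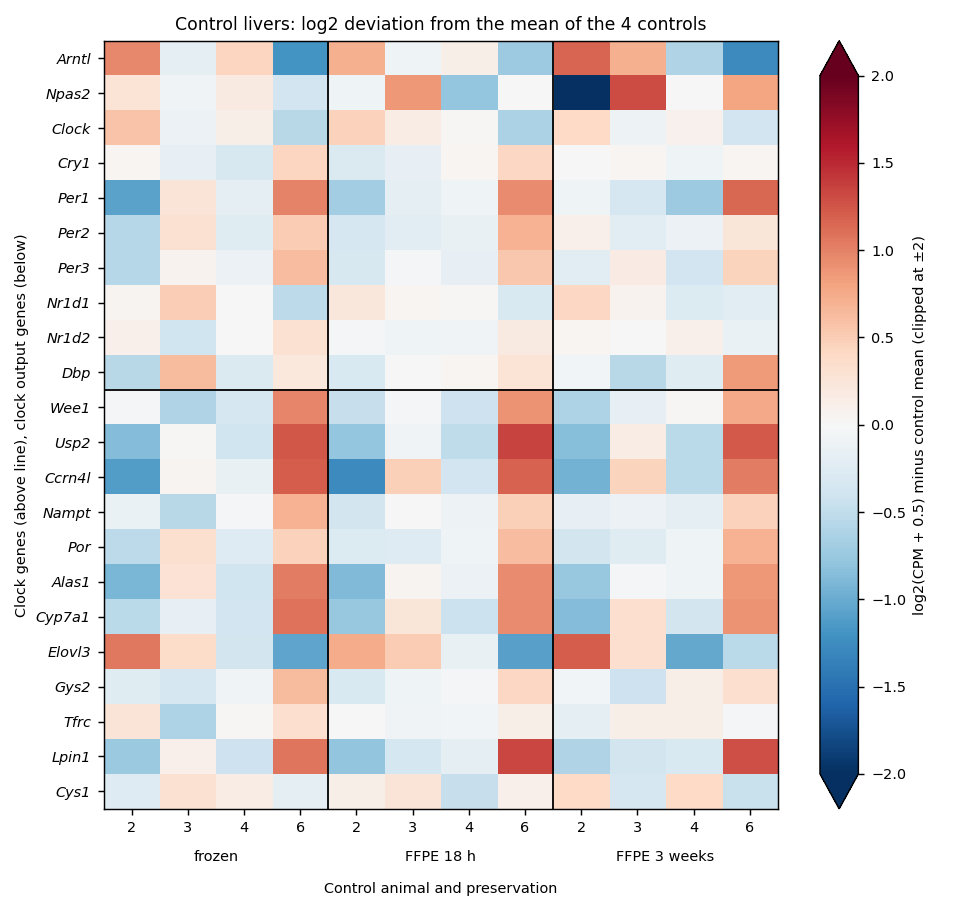
Log2(CPM + 0.5) of each control library minus the mean of the 4 controls of its preservation, for the 10 clock genes above the line and 12 clock output genes below it, with red for higher and blue for lower. Animal 6 is red for Per1, Per2, Per3 and 9 of the output genes in every preservation and blue for Arntl and Clock, and animal 2 has the reverse colours for Arntl and Usp2.

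The spread between animals was wider among controls than among furan animals for 9 of 10 clock genes, Cry1 being the exception. As an SD of log2 CPM averaged over pieces, Clock spread by 0.412 in controls and 0.0865 with furan, and Arntl by 0.950 and 0.414. Pieces of 1 animal, after the mean of each preservation was taken out, differed by 0.131 for Clock and 0.534 for Arntl in controls. Animals spread more than pieces for 6 of 10 clock genes in controls, the exceptions being Npas2, Cry1, Nr1d2 and Dbp, and for 8 of 10 with furan, the exceptions being Cry1 and Dbp. No test was made of these spreads, which rest on 4 animals each. The same counts were not made over all genes, so they are not shown to be particular to the clock genes.

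Among 17 other genes of the clock (Cry2, Rora, Bhlhe40, Bhlhe41, Ciart, Nfil3, Tef, Hlf and the kinases and ubiquitin ligases that set the stability of PER and CRY among them), 0 were called between furan and control in frozen tissue by edgeR. Their median log2 fold change was -0.11, against -0.01 over all genes, and 5 had an unadjusted p under 0.05. The share of all genes with such a p was not computed, but at least 1736 of the 14122 genes tested had one. In FFPE 18 h 3 were higher and 0 lower, a share near the 15.5% of all genes called there (7.82% higher): Csnk1e (0.47 ± 0.13, adjusted p = 0.017) and Csnk1a1 (0.24 ± 0.06, adjusted p = 0.0144), casein kinases that phosphorylate PER proteins or other clock proteins, and Fbxw11 (0.25 ± 0.08, adjusted p = 0.0407), part of a ubiquitin ligase. Csnk1a1 was at 102 to 117 CPM in FFPE 18 h controls and 121 to 132 CPM in furan animals, without overlap. In FFPE 3 weeks 0 of 17 were called by edgeR, and 5 had an unadjusted p under 0.05. At least 646 and fewer than 1835 of all 12983 genes tested there had one.

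Of the 12 clock output genes, 1 was higher and 1 lower with furan in frozen tissue, and the same genes were called in FFPE 18 h, beside 2.78% and 15.5% of all genes. Tfrc, the transferrin receptor, was at 17.5 to 34.4 CPM in frozen controls and 55.4 to 107 CPM in furan animals and rose by 1.39 ± 0.24 (adjusted p = 0.013, edgeR). It rose by 1.08 ± 0.16 in FFPE 18 h and by 0.91 ± 0.18 in FFPE 3 weeks (adjusted p = 0.00179 and 0.0025). Elovl3, a fatty acid elongase put on the list with its fall already known, was at 13.9, 8.46, 4.89 and 2.86 CPM in frozen controls 2, 3, 4 and 6 and at 1.05 to 1.68 CPM in furan animals, called lower there and in FFPE 18 h (adjusted p = 0.0115 and 0.00818). The list medians were -0.53, -0.56 and -0.45 in frozen, FFPE 18 h and FFPE 3 weeks tissue, against -0.01, -0.00 and 0.01 over all genes, while 10, 10 and 11 of its 12 genes did not pass the test. Control 6 was the highest control in all 3 pieces for 9 of the 12 genes, which raises the control level they are set against. The medians were not computed without that animal, and its part in them was not tested.

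Genes other than the 10 clock genes were ranked by how closely their levels followed Arntl over the 24 libraries, with log2 CPM centred on each preservation and 10608 genes compared. The closest were Acnat2, an acyltransferase (Pearson r = 0.918), Ppp1r3c, a glycogen-targeting subunit of protein phosphatase (0.886), Chka, choline kinase (0.883), Slc30a10 (0.876) and Mal2 (0.876). For Dbp they were Ttc7 (0.891), Sds, serine dehydratase (0.888), Nfkbia, an inhibitor of NF-kappaB (0.867), Apoc4 (0.837) and Inmt (0.833). Among the clock genes, Arntl followed Clock (0.88) and ran against Per3 (-0.78), Dbp (-0.75) and Per1 (-0.70), while Nr1d1 was unrelated to it (-0.00). The libraries hold 3 pieces of each of 8 animals and share the furan contrast, so these values are descriptions, and by rank correlation 2 of the 5 genes for Arntl and 3 of the 5 for Dbp stayed.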

How the data were processed

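Total RNA depleted of ribosomal RNA was sequenced from 24 liver pieces (TruSeq libraries). The authors deposited raw counts per gene symbol, whole numbers with no normalization; the submitters' processing notes name CASAVA 1.8.2, STAR 2.3.0, featureCounts 1.4.4 and build mm9. Gene models, strand setting and handling of multi-mapped reads are not given in the sources used here. The 10 genes and all lists were chosen with earlier results of these data known.

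Counts were tested over the whole table with edgeR 4.0.16 in R 4.3.3 (filterByExpr, TMM, robust quasi-likelihood, two-sided, Benjamini-Hochberg adjusted p below 0.05). Furan was tested within each preservation, 4 against 4 animals. Preservations were compared over both treatments, 8 against 8 libraries, and interactions in the same fits. SEs were derived from each estimate and its F statistic. CPM were TMM-scaled over 24 libraries, and CPM per kb used GENCODE M21 exon lengths (GRCm38). Because that build is not mm9, it served for lengths, exon overlap and RefSeq promoters only.

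Same-numbered libraries come from 1 liver, as the labels' protocols state. Their deviations correlated at 0.0132 to 0.382 over 12799 genes (24 pairs, 22 best with their own animal). All 10 genes are named throughout; of other clock genes and output genes, those called in frozen or FFPE 18 h tissue; of other genes most like Arntl or Dbp, the 5 with the highest Pearson r. Animals and output genes named for control animal 6 were chosen after their values were seen. Alternatives were DESeq2 size factors, the DESeq2 1.42.0 test, no low-count filter, thinning to 5560002 counts, 1 fit of all 24 libraries, the replicate block and leaving out each library or animal. Some of the edgeR fits, not all, were tested on simulated counts, drawn without any effect shared by pieces of 1 liver. The simulation therefore cannot show how the unpaired fits between preservations behave with such pieces. 1 gene of the other clock genes is counted with its list but not reported here.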

Additional observations from a re-analysis of the deposited data

Results flagged for a closer look

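In groups of 4 libraries, 5 of the 60 gene and group combinations (8.33%) had a library set far apart from the other 3 by Dixon's criterion; chance alone flags about 1 in 20. For Npas2 in FFPE 18 h furan tissue, animal 42 was highest at 2.82 CPM, beside 0.925 to 1.00 CPM in the others. For Clock in FFPE 3 weeks furan tissue, animal 42 was highest at 194.4 CPM, and it was the highest furan animal for Clock in all 3 pieces. For Per2 in FFPE 18 h control tissue, animal 6 was highest at 82.9 CPM, beside 40.2 to 46.1 CPM. For Nr1d2 in the same group animal 6 was highest at 200.7 CPM, beside 167 to 172 CPM. For Nr1d1 in FFPE 3 weeks furan tissue, animal 44 was lowest at 52.1 CPM, and it was the lowest furan animal for Nr1d1 in all 3 pieces.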

How the results depend on the processing

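Over the 10 clock genes, 807 alternative fold changes were computed, of which 746 kept their direction and their side of the threshold, 17 lost a call, 21 gained one and 23 changed sign. The number of clock genes called with furan in frozen tissue was 1, and 2 with the DESeq2 test, which added Cry1 (adjusted p = 0.00911); in FFPE 18 h it was 3, and 0 in the fit of all 24 libraries, where Arntl (adjusted p = 0.0514), Cry1 (0.303) and Dbp (0.568) were lost; in FFPE 3 weeks it was 0, and 1 (Per1, adjusted p = 0.0114) without the low-count filter. With a library left out these ranged over 0 to 2, 3 to 4 and 0 to 0. Over all genes, frozen tissue had 392 calls, 1004 with DESeq2, 238 after thinning and 99 to 1148 with a library left out. FFPE 18 h had 2208, and 305 in the fit of all 24 libraries. FFPE 3 weeks had 335, 1549 in that fit and 218 to 280 with a library left out. For FFPE 18 h against frozen tissue that fit had 5224 in place of 8006. The interaction for FFPE 3 weeks had 13 calls with DESeq2, 4 in the fit of all 24 libraries and 0 to 1 with an animal left out. Thinning changed the sign of Per2 in frozen tissue (0.0389) and FFPE 18 h (-0.0222) and of Dbp for 18 h against frozen (0.0128). With a library left out, values that changed sign with furan were Per2 in frozen tissue (-0.18 to 0.17), FFPE 18 h (-0.11 to 0.30) and FFPE 3 weeks (-0.0184 to 0.144), and Npas2 (-0.14 to 0.86) and Nr1d2 (-0.00899 to 0.0643) in FFPE 3 weeks. For 18 h against frozen they were Npas2 (-0.0878 to 0.635), Clock (-0.0318 to 0.0432), Nr1d2 (-0.0369 to 0.0334) and Dbp (-0.138 to 0.0386), and for 3 weeks against 18 h Cry1 (-0.0244 to 0.317). None of these was a call. Thinning and leaving out libraries cut counts or samples by construction; for the other alternatives the cause was not tested. With the animal as replicate block, Npas2 lost its call for 3 weeks against frozen (1.77, adjusted p = 0.121), Per1 gained one there (0.83, adjusted p = 0.00248) and for 3 weeks against 18 h (-0.74, adjusted p = 4.65e-06), and no other call of a clock gene changed. Other scaling kept each furan direction of the 10 genes. In the 8 frozen libraries alone, 0 of the 5 genes most like Arntl and 1 of the 5 most like Dbp stayed among the 5. Npas2 was limited by depth, with 0 to 58 counts in FFPE 3 weeks.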
